A study of Mus musculus with 6 samples.

Results

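Expression of 9 genes of the ERK feedback circuit was read from RNA-seq of bcCML cells (a mouse model of chronic myeloid leukemia in blast crisis) from WT donors and from donors with a disrupted gene for syndecan-1 (Sdc1), a cell surface heparan sulfate proteoglycan. They were chosen by name, as inhibitors and target genes of the ERK pathway: Spry1, Spry2, Spry4, Spred1, Spred2, Dusp4, Dusp5, Dusp6 and Etv5. All 9 were found among the 36083 genes of the deposited table. The test took the 12155 genes whose values averaged 1 or more, among them 8 of the 9 members, and Dusp4 lay below that minimum. The study made the comparison to learn how loss of Sdc1 affects leukemic growth and migration.

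The leukemia was made from KLS cells, the stem and progenitor fraction of bone marrow, of B6 donor mice that were WT or Sdc1-/-. Cells of both groups were infected with retroviruses for BCR-ABL, a constitutively active tyrosine kinase, and NUP98-HOXA9, a fusion transcription factor, and those that carried both oncogenes were transplanted. The labels name NSG mice, which lack lymphocytes, as recipients, whereas the study's general methods name another strain. The Lin- bcCML cells were sorted from spleens taken from both cohorts at the same time, and the Sdc1-/- allele interrupts the signal peptide sequence in every cell of the donor. Donor age is not given in the labels, and the study's methods and its reporting summary state different age ranges for all mice used. Each group had 3 libraries.

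Each value is a TPM, a share of a fixed total of transcripts that takes their length into account. The values were rescaled after that, and their sums were 1048875 to 1058263 in WT and 944973 to 951814 in Sdc1-/- libraries. Read depth is unknown, and no counting error can be given. A supplementary legend of the study gives n = 3 technical replicates for its RNA-seq of WT Lin- cells. Whether the libraries of a group came from separate mice is not settled, so p-values measure only the spread between these libraries, which may be technical. Sdc1 itself had values of 1.75, 1.21 and 1.51 in the WT libraries and 3.85, 3.80 and 4.12 in those labelled Sdc1-/-, so its mRNA was higher under the knockout label (log2 fold change 0.99, limma adjusted p = 1.18e-04). A disruption of the signal peptide sequence need not remove the mRNA, so this level does not check the labels, and every direction given here is that of the libraries as labelled. Y-linked genes also separated the groups, with a summed level of 4 genes of 0.276 to 0.308 in WT and 68.1 to 78.4 in Sdc1-/- libraries, so donor sex and genotype cannot be told apart. Markers of mature myeloid cells differed as well. All 8 neutrophil markers were lower in Sdc1-/- libraries, with summed levels of 13137 to 14056 in WT and 4975 to 5104 in Sdc1-/-, and S100a8 was the most abundant. All 8 monocyte and macrophage markers were lower too (292 to 300 against 145 to 147), and the lineage antigen Itgam went from 23.6 ± 0.328 to 7.33 ± 0.318 (SD, n = 3). Of 7 erythroid markers 5 were lower and 2 higher, with summed levels of 9484 to 10189 in WT and 5275 to 5677 in Sdc1-/-. Of 7 progenitor markers 4 were higher and 2 lower, with summed levels of 355 to 378 and 387 to 401. Megakaryocyte markers summed to 496 to 523 and 498 to 510, with 4 of 5 lower and 1 higher. Of the endothelial and stromal list only Col1a2 was tested, at 18.8 ± 0.356 and 23.2 ± 0.047 (SD, n = 3), and Cdh5 was at most 0.024. T cell markers summed to 7.83 to 9.74 in WT and 16.1 to 17.0 in Sdc1-/- libraries. Most of that sum was Lck, which was higher (6.89 ± 1.06 and 14.1 ± 0.740, log2 fold change 0.95, limma adjusted p = 1.73e-04). Trac, the other of the 2 tested, did not pass (1.09 ± 0.367 and 1.65 ± 0.282). The T cell receptor subunit gene Cd3e was at 0 in every WT library and reached 0.038 in Sdc1-/-. Means of Cd4 (0.093 and 0.024), Cd8a (0.027 and 0.0084) and Cd3g (0.043 and 0.028) were lower in Sdc1-/- libraries. Cd3d (0.565 and 0.698) overlapped between the groups. In sorted bulk samples fewer cells of a type and less RNA per cell cannot be told apart, and the part of these cells in the member values was not tested.

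Receptor tyrosine kinases and BCR-ABL activate RAS through adaptors, RAS activates RAF, RAF activates the kinases MEK1 and MEK2, and these phosphorylate ERK. Active ERK induces its own inhibitors. Sprouty proteins (Spry) and their relatives with an EVH1 domain (Spred) act upstream, at the level of adaptors, RAS and RAF, and Spred proteins recruit neurofibromin, the RAS GTPase-activating protein encoded by Nf1. Dual-specificity phosphatases (Dusp) remove the activating phosphates from ERK itself. DUSP4 and DUSP5 are nuclear and DUSP6 is cytoplasmic. Etv5 encodes an ETS family transcription factor that is commonly read, with Etv4 and the Spry and Dusp genes, as a sign of ERK output. Several of these genes are repressed by CIC (capicua), which is inactivated by ERK.

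The promoters of 4 members are shown because they differ in the letters that some of these regulators recognize. RefSeq starts on GRCm38.p6 were found for 7 of the 9 members, and the 250 bases before each start were searched on both strands for 5 motifs. These were the CIC octamer (TCAATGAA, TCAATGGA, TGAATGAA or TGAATGGA), an ETS word (CCGGAAGT), the cAMP response element (TGACGTCA), the AP-1 site (TGANTCA) and the CArG box of serum response factor. The same motifs were found in 3.19%, 2.88%, 1.55%, 6.75% and 1.47% of 32851 promoters of this length. Each sequence is written 5′ to 3′ on the strand of the gene, with a matched motif in capitals. Dusp5 is cut where the annotated gene begins, and positions are counted back from its RefSeq start, 36 bases past the printed end.
Spry1 (chr3:37639697-37639946, plus strand): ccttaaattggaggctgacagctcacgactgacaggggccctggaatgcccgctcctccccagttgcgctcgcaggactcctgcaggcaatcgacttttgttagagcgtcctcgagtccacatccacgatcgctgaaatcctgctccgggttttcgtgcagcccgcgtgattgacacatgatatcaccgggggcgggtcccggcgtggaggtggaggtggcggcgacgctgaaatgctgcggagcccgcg
Spry2 (chr14:105896820-105897069, minus strand): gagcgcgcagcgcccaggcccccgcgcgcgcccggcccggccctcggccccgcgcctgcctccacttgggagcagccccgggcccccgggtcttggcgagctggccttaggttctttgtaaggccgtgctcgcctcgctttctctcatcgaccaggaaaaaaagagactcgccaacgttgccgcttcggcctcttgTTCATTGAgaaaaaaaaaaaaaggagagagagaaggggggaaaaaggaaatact
Dusp6 (chr10:99262981-99263230, plus strand): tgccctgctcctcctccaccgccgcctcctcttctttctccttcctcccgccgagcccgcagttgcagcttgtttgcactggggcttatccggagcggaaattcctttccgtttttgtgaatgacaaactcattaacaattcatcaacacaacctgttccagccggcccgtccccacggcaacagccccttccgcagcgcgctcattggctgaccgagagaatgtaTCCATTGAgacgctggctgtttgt
Dusp5 (chr19:53528895-53529108, plus strand): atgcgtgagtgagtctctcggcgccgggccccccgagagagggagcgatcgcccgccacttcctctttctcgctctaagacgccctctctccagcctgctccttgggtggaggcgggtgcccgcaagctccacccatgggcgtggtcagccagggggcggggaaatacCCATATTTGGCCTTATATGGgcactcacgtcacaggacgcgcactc

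Spry2 held a CIC octamer, TTCATTGA as read on the gene strand, 54 to 47 bases before its start. Dusp6 held another, TCCATTGA, 24 to 17 bases before its start. Dusp5 held 2 adjacent CArG boxes, CCATATTTGG and CCTTATATGG, which together span 82 to 63 bases before its start. Spry1 held no match to any of the 5 motifs, nor did Spred1, Spred2 and Etv5, so 4 of the 7 members searched had none. No ETS word, cAMP response element or AP-1 site was found in the window of any member searched. None of the matches overlapped another. A match describes letters and is no evidence of binding, and the lack of one says only that these letters are not in this window.

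Of the 8 members tested, 2 were higher in Sdc1-/- libraries (Spry2 and Spred2), 1 was lower (Spry1) and 5 did not pass the test (Spry4, Spred1, Dusp5, Dusp6 and Etv5). The fit used limma on the log2 scale after adding 1 to each value, and p-values were adjusted by the Benjamini-Hochberg method over all 12155 genes with a threshold of 0.05. The same fit called 60.7% of all genes, 29.3% higher and 31.3% lower, so a call on 3 of 8 members is no excess over the background. The groups did not overlap in 6 of the 8, against 66.7% of all genes tested. The 8 had a median log2 fold change of 0.070, beside -0.0097 for all genes tested, and a median size regardless of sign of 0.11, beside 0.23. Fold changes are on the scale of log2(value + 1), which understates the change of low genes.

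**Figure D1:**
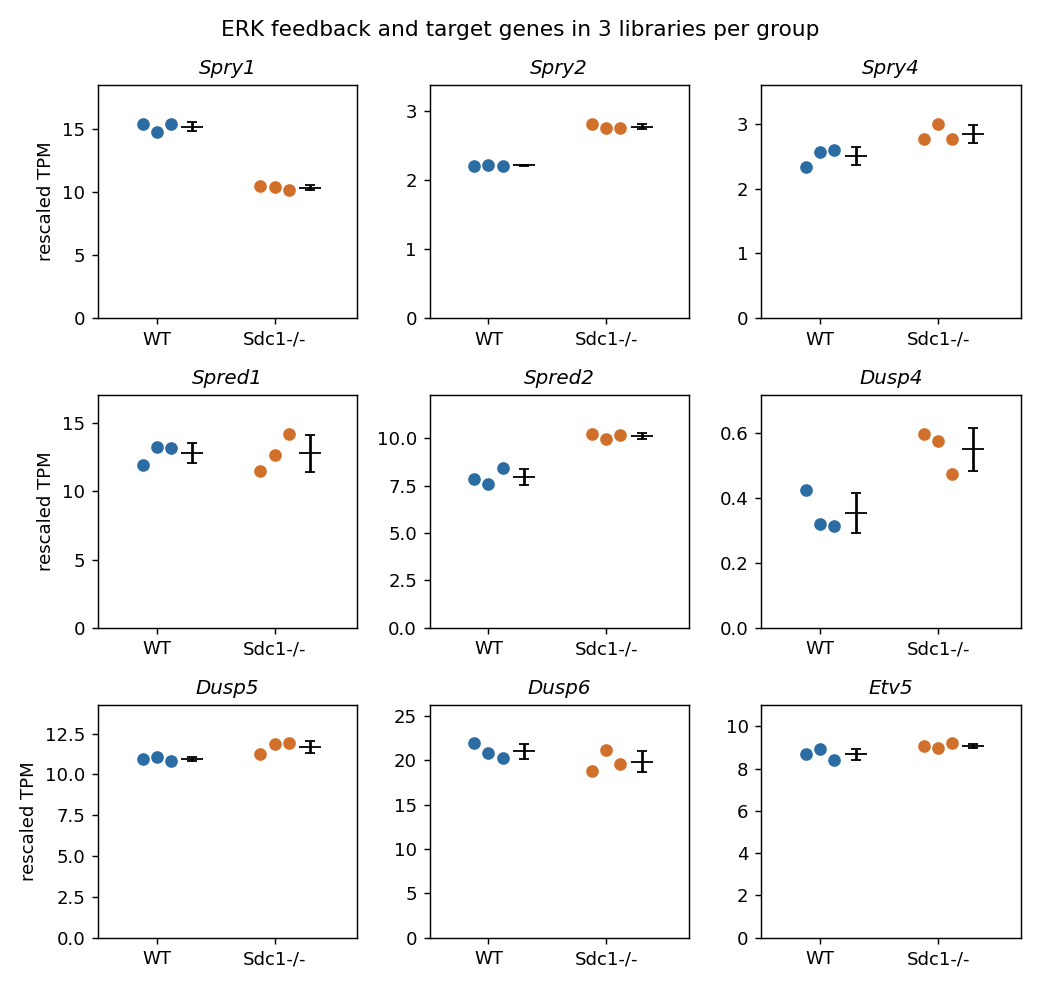
Rescaled TPM (vertical axis, linear, from 0, with its own range per gene) of the 9 genes in 3 WT (blue) and 3 Sdc1-/- (orange) libraries. Points are libraries, and the bar with whiskers is the mean ± SD. Spry1 lies between 14.8 and 15.4 in WT and between 10.1 and 10.5 in Sdc1-/-, while the values of Spred1 and Dusp6 overlap.

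The Spry genes did not move together. Spry1, an inducible inhibitor of growth factor signalling (ENSMUSG00000037211, chr3:37639947-37644598 on GRCm38, as for all genes here, plus strand), had values of 15.4, 14.8 and 15.4 in WT libraries and 10.5, 10.4 and 10.1 in Sdc1-/- libraries. Every Sdc1-/- library lay below every WT library, and the group means of 15.2 ± 0.361 and 10.3 ± 0.191 (SD, n = 3) differed by more than the spread. Spry1 fell 1.47-fold in mean value, and on the log2(value + 1) scale Spry1 had a fold change of -0.51 (SE 0.040, 95% interval -0.61 to -0.42, limma adjusted p = 5.04e-05). It had the largest change of the 8 members tested, and its mean over all libraries placed it at percentile 82.1 of the genes in the table.

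Spry2, the other sprouty gene that passed the test, moved the opposite way. Spry2 (ENSMUSG00000022114, chr14:105891947-105896819, minus strand) had values of 2.21, 2.22 and 2.21 in WT libraries and 2.81, 2.75 and 2.75 in Sdc1-/- libraries. The groups did not overlap, and the spread within each was small, with means of 2.21 ± 0.0083 and 2.77 ± 0.036 (SD, n = 3). Spry2 rose 1.25-fold in mean value, and its fold change on the log2(value + 1) scale was 0.23 (SE 0.057, 95% interval 0.096 to 0.37, limma adjusted p = 0.0106). In every library the level of Spry2 lay below that of Spry1.

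The third sprouty gene measured, Spry4, encodes an inhibitor of the same family that is widely used as a readout of ERK activity. Its values were 2.34, 2.56 and 2.60 in WT libraries and 2.76, 3.002 and 2.76 in Sdc1-/- libraries. All Sdc1-/- values exceeded all WT values, but the log2 fold change of 0.13 (SE 0.065, 95% interval -0.021 to 0.29) did not pass limma's test (adjusted p = 0.115). With every library set to the same sum, Spry4 was at 0.24 and passed (limma adjusted p = 0.0151). Spry4 is at chr18:38586247-38601415 on the minus strand (ENSMUSG00000024427). Spry3, the remaining sprouty gene, had no row in the table. Spry1, Spry4 and Dusp5 each overlap annotated noncoding RNAs or unverified transcripts on the opposite strand. The study used a stranded library kit, but the strand setting of its counting is not given. Whether reads of such partners were kept apart is therefore unknown.

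Ratios of genes whose directions were known are given as descriptions, without p-values. Spry1 over Spry2 was 6.99, 6.66 and 6.98 in WT libraries and 3.73, 3.78 and 3.68 in Sdc1-/- libraries. The ratio is free of the scaling between libraries, and its group means were 6.87 ± 0.188 and 3.73 ± 0.049 (SD, n = 3). The summed level of Spry1, Spry2 and Spry4 was 19.9 ± 0.321 in WT and 16.0 ± 0.282 in Sdc1-/- (2-sided exact permutation p = 0.1, the smallest that 3 against 3 libraries allow). Unlike the ratios, summed levels here and below depend on the deposited scaling, where library totals were lower in Sdc1-/- libraries.

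The Spred genes differed from each other as well. Spred2, which binds RAS pathway components and recruits neurofibromin (ENSMUSG00000045671, chr11:19924375-20024026, plus strand), had values of 7.86, 7.58 and 8.45 in WT libraries and 10.3, 9.97 and 10.2 in Sdc1-/- libraries. The groups did not overlap. Spred2 rose 1.27-fold in mean value, from 7.96 ± 0.444 to 10.1 ± 0.145 (SD, n = 3). On the log2(value + 1) scale the fold change of Spred2 was 0.31 (SE 0.051, 95% interval 0.19 to 0.43, limma adjusted p = 0.00154). Of its 4618 words of 31 bases, 4.20% also occur in the pseudogene Gm14612, whose own values were at most 0.028.

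Spred1, the relative with germline loss in Legius syndrome, stayed within the spread of the libraries. Spred1 (ENSMUSG00000027351, chr2:117121374-117182279, plus strand) had values of 11.9, 13.2 and 13.2 in WT libraries and 11.5, 12.6 and 14.2 in Sdc1-/- libraries. The Sdc1-/- values enclosed the WT values on both sides, and the log2 fold change was -0.0012 (SE 0.079, 95% interval -0.19 to 0.19, limma adjusted p = 0.990). The interval allows a change of either sign. The ratio of Spred1 to Spred2 was 1.61 ± 0.120 in WT and 1.26 ± 0.138 in Sdc1-/- libraries (SD, n = 3).

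Spred3, the third Spred gene, is not one of the 9 and was named after its values were seen. Its values were 0.318, 0.238 and 0.357 in WT libraries and 1.38, 1.29 and 1.44 in Sdc1-/- libraries. No WT library reached the lowest Sdc1-/- library. Its mean lay below the minimum of 1, and in the fit without a minimum its log2 fold change was 0.86 (limma adjusted p = 2.42e-04). In that fit 32.5% of 24714 genes were called. Spred3 overlaps the protein-coding gene Ggn on the opposite strand. Ggn was also higher in Sdc1-/- libraries, at 0.117 to 0.195 in WT and 0.286 to 0.636 in Sdc1-/-. The library kit was stranded, but whether the authors' counting used the strand is not given in the sources used here. Whether reads of Ggn entered the values of Spred3 is therefore unknown, and their part in the rise of Spred3 was not tested. Over all 6 measured Spry and Spred genes the summed level was 40.9 ± 1.09 in WT and 40.2 ± 1.13 in Sdc1-/- libraries (SD, n = 3). On the deposited scale this difference lay within the spread (exact permutation p = 0.4). Library totals were lower in Sdc1-/- libraries, and a difference with every library set to the same total was not tested.

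**Figure D2:**
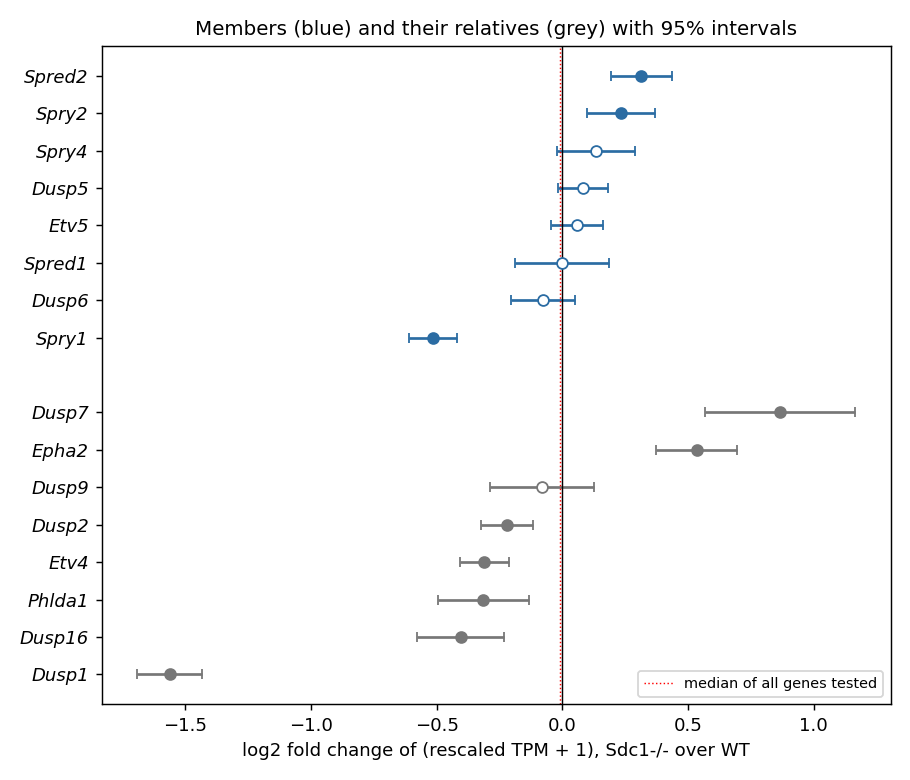
Log2 fold change of (rescaled TPM + 1), Sdc1-/- over WT (horizontal axis), with 95% intervals from limma, for the 8 tested members (blue) and their tested relatives (grey). Filled points passed an adjusted p of 0.05, and the red dotted line marks the median of all genes tested, -0.0097. Among the members Spred2 and Spry2 lie above 0 and Spry1 below it, while Spred1, Dusp6 and the relative Dusp9 did not pass and change sign when every library is set to the same sum.

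Among the phosphatases, neither Dusp5 nor Dusp6 passed the test. Dusp6, the cytoplasmic ERK phosphatase (ENSMUSG00000019960, chr10:99263231-99267489, plus strand), was the most highly expressed member in both groups. Its values were 21.9, 20.8 and 20.3 in WT libraries and 18.8, 21.2 and 19.5 in Sdc1-/- libraries. The Sdc1-/- library 2 lay above WT libraries 2 and 3, so the groups overlapped. The log2 fold change of -0.077 (SE 0.054, 95% interval -0.21 to 0.051) did not pass limma's test (adjusted p = 0.255), and it was 0.064 with every library set to the same sum. Its mean placed Dusp6 at percentile 86.2 of the genes in the table.

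Dusp5 encodes a nuclear phosphatase that is specific for ERK (ENSMUSG00000034765, chr19:53529109-53542431, plus strand). It had values of 10.95, 11.1 and 10.8 in WT libraries and 11.2, 11.9 and 11.9 in Sdc1-/- libraries. The groups did not overlap, although the lowest Sdc1-/- library lay close to the WT libraries. The log2 fold change of 0.082 (SE 0.042, 95% interval -0.018 to 0.18) did not pass limma's test (adjusted p = 0.134). With every library set to the same sum it was 0.22 and passed (limma adjusted p = 0.00351).

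Dusp4, a nuclear phosphatase that also acts on JNK and p38 (ENSMUSG00000031530, chr8:34807297-34819894, plus strand), was near the limit of what these values can show. Its values were 0.425, 0.322 and 0.314 in WT libraries and 0.599, 0.577 and 0.476 in Sdc1-/- libraries. All Sdc1-/- values exceeded all WT values. In the fit without a minimum its log2 fold change was 0.20 (SE 0.051, 95% interval 0.069 to 0.32, limma adjusted p = 0.0339). That call was lost without WT library 2 or 3 or Sdc1-/- library 1 or 2 (limma adjusted p 0.0966 to 0.105) and with a pseudocount of 0.1 (adjusted p = 0.0849). The summed level of Dusp4, Dusp5 and Dusp6 was 32.3 ± 0.929 in WT and 32.1 ± 1.497 in Sdc1-/- libraries (SD, n = 3, exact permutation p = 0.9).

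Relatives of these phosphatases did pass the test. Of 10 MAP kinase phosphatases listed, Dusp4, Dusp5 and Dusp6 included, 7 were tested, of which 1 was higher, 3 were lower and 3 did not pass, with a median log2 fold change of -0.082. Dusp1, an immediate early gene whose product favours p38 and JNK, had values of 10.97, 11.3 and 11.2 in WT libraries and 3.35, 3.04 and 2.97 in Sdc1-/- libraries. It fell 3.58-fold in mean value, and its fold change on the log2(value + 1) scale was -1.56 (SE 0.054, limma adjusted p = 2.01e-06). Dusp1 overlaps Ergic1 on the other strand (58.5 to 73.5 over the libraries), and the strand setting of the authors' counting is not given in the sources used here.

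Dusp7, a cytoplasmic ERK phosphatase of the same subfamily as Dusp6, moved the other way. Its values were 6.19, 5.81 and 5.62 in WT libraries and 14.3, 10.99 and 9.69 in Sdc1-/- libraries. Every Sdc1-/- library exceeded every WT library, with a wide spread in the Sdc1-/- group, and Dusp7 rose with a log2 fold change of 0.87 (SE 0.13, limma adjusted p = 9.08e-04). Dusp7 over Dusp6 was 0.280 ± 0.0028 in WT and 0.591 ± 0.146 in Sdc1-/- libraries, and Dusp1 over Dusp6 was 0.533 ± 0.028 and 0.158 ± 0.018 (SD, n = 3).

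Dusp2, a nuclear phosphatase of immune cells, fell from 13.1 ± 0.343 to 11.1 ± 0.352 (log2 fold change -0.22, limma adjusted p = 0.00391), a call that was lost with every library set to the same sum (adjusted p = 0.129). Dusp16, which acts mainly on JNK and p38, fell from 4.19 ± 0.412 to 2.91 ± 0.087 (log2 fold change -0.41, limma adjusted p = 0.00251). Dusp9 did not pass, with 1.44 ± 0.046 and 1.31 ± 0.206 (SD, n = 3, limma adjusted p = 0.447). Dusp8 and Dusp10 were below the minimum mean, with values of at most 0.349 and 0.620. The summed level of all 10 was 68.8 ± 1.11 in WT and 62.9 ± 2.16 in Sdc1-/- libraries (exact permutation p = 0.1, the smallest possible). Library totals were also lower in Sdc1-/- libraries, and whether this sum differs with every library set to the same total was not tested. In the windows before their RefSeq starts, Dusp16 and Spred3 each held a CIC octamer and Dusp1 a cAMP response element, with the motif positions counted in the same way as for the members.

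Etv5, the transcription factor among the members, differed little (ENSMUSG00000013089, chr16:22381309-22439719, minus strand). Its values were 8.71, 8.94 and 8.42 in WT libraries and 9.07, 8.99 and 9.19 in Sdc1-/- libraries. The groups did not overlap, but the gap between them was narrow. The log2 fold change of 0.058 (SE 0.043, 95% interval -0.045 to 0.16) did not pass limma's test (adjusted p = 0.286), and with every library set to the same sum it was 0.19 and passed (adjusted p = 0.00697). The pseudogene Gm4798 shares 30.3% of the 4215 words of 31 bases in the Etv5 transcripts, and its own values were at most 0.063.

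Etv4, the closest relative of Etv5, passed the test with the opposite sign. It fell from 9.17 ± 0.146 to 7.20 ± 0.036 (log2 fold change -0.31, limma adjusted p = 6.07e-04). Etv4 over Etv5 was 1.06 ± 0.040 in WT and 0.792 ± 0.0096 in Sdc1-/- libraries (SD, n = 3). In WT libraries the level of Etv4 was therefore the higher of the 2, and in Sdc1-/- libraries that of Etv5.

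Read per length, the 9 genes kept much of their order between the groups. In WT libraries the order of the levels was Dusp6, Spry1, Spred1, Dusp5, Etv5, Spred2, Spry4, Spry2 and Dusp4, and of these neighbours only Etv5 and Spred2 overlapped. In Sdc1-/- libraries Dusp6 was again first, followed by Spred1, Dusp5, Spry1, Spred2, Etv5, Spry4, Spry2 and Dusp4. There Spred1 overlapped Dusp5, Spry1 overlapped Spred2 and Spry4 overlapped Spry2. Spry1 moved from the second place to the fourth. Its share of the summed level of the 9 genes was 18.6% ± 0.415 in WT and 12.9% ± 0.535 in Sdc1-/- libraries (SD, n = 3), while that of Spred2 was 9.75% ± 0.537 and 12.7% ± 0.5005. The sum itself was 81.6 ± 0.126 and 80.0 ± 2.14 (SD, n = 3) on the deposited scale, as a description, and was not compared under another scaling. Its ranges, 81.48 to 81.73 in WT and 77.5 to 81.39 in Sdc1-/- libraries, did not overlap but nearly met. Spry1 over Spred2, the called members of these 2 families with the largest fall and the largest rise on the log2(value + 1) scale, was 1.91 ± 0.079 in WT and 1.02 ± 0.024 in Sdc1-/- libraries.

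Genes whose levels ran most like those of 2 members were found by Pearson's correlation of log2(value + 1) over the 6 libraries, as a description. For Spry1 these were Csf2rb, a cytokine receptor subunit, at r = 1.00, 1600014C10Rik at 0.999 and Tcn2, a vitamin B12 carrier, at 0.999. The libraries form 2 groups, and 2893 of 12147 genes had an r of at least 0.9 with Spry1. For Dusp6 the nearest were Bspry at 0.988, Gm4070 at 0.987 and Gmpr2 at 0.978, and 22 of 12147 genes reached 0.9.

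The scaling between libraries bears on the members with small changes. When the libraries were each set to sum to 1000000, the median change over all genes moved on the log2 scale from -0.0097 to 0.12, and the share of lower genes among those called moved from 51.7% to 30.9% (5290 higher and 2367 lower, against 3564 and 3810). Under that scaling 5 members were higher and 1 lower. Taken relative to the median of all genes, the members hardly differed between the deposited scaling and this one. Spry1 was at -0.50 in both, Spred2 at 0.32 in both, and Dusp6 at -0.067 and -0.059. Spry4 was at 0.14 and 0.12, Dusp5 at 0.091 and 0.095 and Etv5 at 0.067 and 0.068. Under quantile normalization the relative values moved more, with Spry1 at -0.55, Spred2 at 0.27 and Dusp6 at -0.11. There Spry4 was at 0.14, Dusp5 at 0.037 and Etv5 at 0.018, and Spred1 went from 0.0085 to -0.041. Whether Spry4, Dusp5 and Etv5 are called higher therefore rests on the scaling, whereas Spry1, Spry2 and Spred2 were called under each of the 3 scalings tried. Summed levels were compared on the deposited scale only, so their differences rest on that scale as well.

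**Figure D3:**
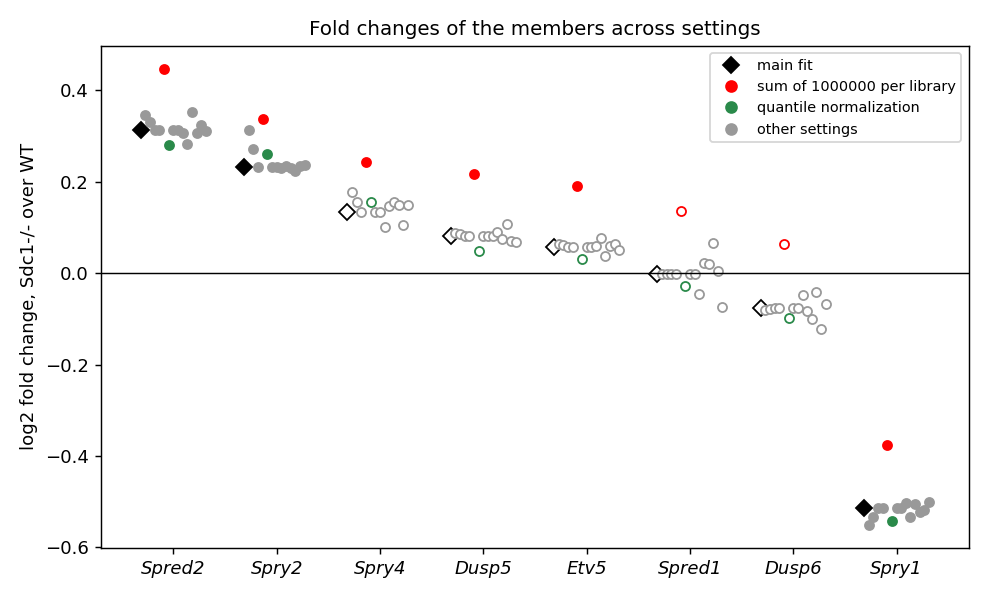
Log2 fold change, Sdc1-/- over WT (vertical axis), of the 8 tested members under the analysis as reported (diamond) and each alternative that gave a value (circles). Filled symbols passed an adjusted p of 0.05. Spry1 stays between -0.55 and -0.38 and Spred2 between 0.28 and 0.45, while Spred1 and Dusp6 cross 0 where libraries are each set to sum to 1000000.

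The members were next set beside the rest of the pathway. A list of 10 genes often used to read MAPK activity (Phlda1, Spry2, Spry4, Dusp4, Dusp6, Ccnd1, Epha2, Epha4, Etv4 and Etv5) had 7 tested genes, of which 2 were higher, 2 lower and 3 did not pass, with a median log2 fold change of 0.058. Besides Spry2, the receptor tyrosine kinase gene Epha2 rose, from 1.42 ± 0.097 to 2.50 ± 0.085 (log2 fold change 0.53, limma adjusted p = 4.88e-04). Besides Etv4, Phlda1 fell from 4.14 ± 0.445 to 3.12 ± 0.120 (-0.31, limma adjusted p = 0.0100), a call that was lost with every library set to the same sum (adjusted p = 0.0595). Ccnd1 and Epha4, with values of at most 0.515 and 0.026, were below the minimum mean. The called genes of this list thus lay on both sides of 0.

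Among ERK target genes outside that list, 5 of 11 tested genes were lower and 2 higher, and the median of their log2 fold changes was -0.17. Ier3, a stress-induced survival gene, fell from 14.7 ± 0.347 to 9.09 ± 0.129 (log2 fold change -0.64), and Fos, an AP-1 subunit, fell from 1.61 ± 0.241 to 0.849 ± 0.106 (-0.49). Egr3 rose from 1.23 ± 0.225 to 1.97 ± 0.271 (0.42), and Myc from 124 ± 3.41 to 141 ± 3.76 (0.18). Each of these 4 passed the limma test.

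Upstream of the members, the adaptors and RAS exchange factors had 9 tested genes, 2 higher and 4 lower. Gab2, an adaptor that BCR-ABL engages through GRB2, fell from 20.3 ± 0.311 to 10.6 ± 0.125 (log2 fold change -0.88, limma adjusted p = 3.50e-06), and Rasgrp4 fell by 0.39 on the log2 scale. Sos1, a RAS exchange factor, rose with a log2 fold change of 0.50, and Crkl, a main substrate of BCR-ABL, with one of 0.27. Among 14 genes for RAS, RAF, MEK, ERK and their scaffolds 3 were higher and 5 lower. Mapk3, which encodes ERK1, fell from 44.7 ± 2.29 to 33.3 ± 2.23 (log2 fold change -0.41, limma adjusted p = 8.39e-04).

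For the MEK genes, Map2k1 was at 30.9 ± 0.544 and 28.5 ± 0.694 (log2 fold change -0.11, limma adjusted p = 0.0293), which was lost when any library but WT 3 was left out (adjusted p 0.0525 to 0.0841) and was 0.033 with every library set to the same sum. Map2k2 did not pass, at 73.9 ± 6.01 and 78.1 ± 9.67 (SD, n = 3, limma adjusted p = 0.528). The RAF scaffold gene Ksr1 rose with a log2 fold change of 0.37 and the MEK partner gene Lamtor3 with one of 0.18. Shoc2, a RAF activator, fell by 0.20 on the log2 scale, a call that was lost with every library set to the same sum (limma adjusted p = 0.337).

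The other inhibitors of RAS and RAF were divided, with 5 of 11 higher and 3 lower. The RAS GTPase-activating genes Dab2ip and Rasal3 rose with log2 fold changes of 0.67 and 0.66, whereas their relative Rasa2 fell by 0.67 on the log2 scale and the ubiquitin ligase gene Cblb by 0.32. Among 13 ERK substrates and transcription factors 4 were higher and 4 lower. Cic, the repressor whose octamer occurs before Spry2 and Dusp6, rose from 19.6 ± 2.78 to 36.2 ± 1.26 (SD, n = 3, log2 fold change 0.86, limma adjusted p = 2.64e-04). Of the members that held its octamer in the window, Spry2 rose and Dusp6 did not pass the test. Among their relatives with the octamer, Spred3 was higher in the fit without a minimum mean and Dusp16 was lower. Whether CIC acts on these genes here was not tested. Elk4, a partner of serum response factor, rose with a log2 fold change of 0.62, while Ets1 and Rps6ka1 fell by 0.71 and 0.63 on the log2 scale. Dusp5, the member with 2 CArG boxes in its window, did not pass the test, and a part of serum response factor in its level was not tested.

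**Figure D4:**
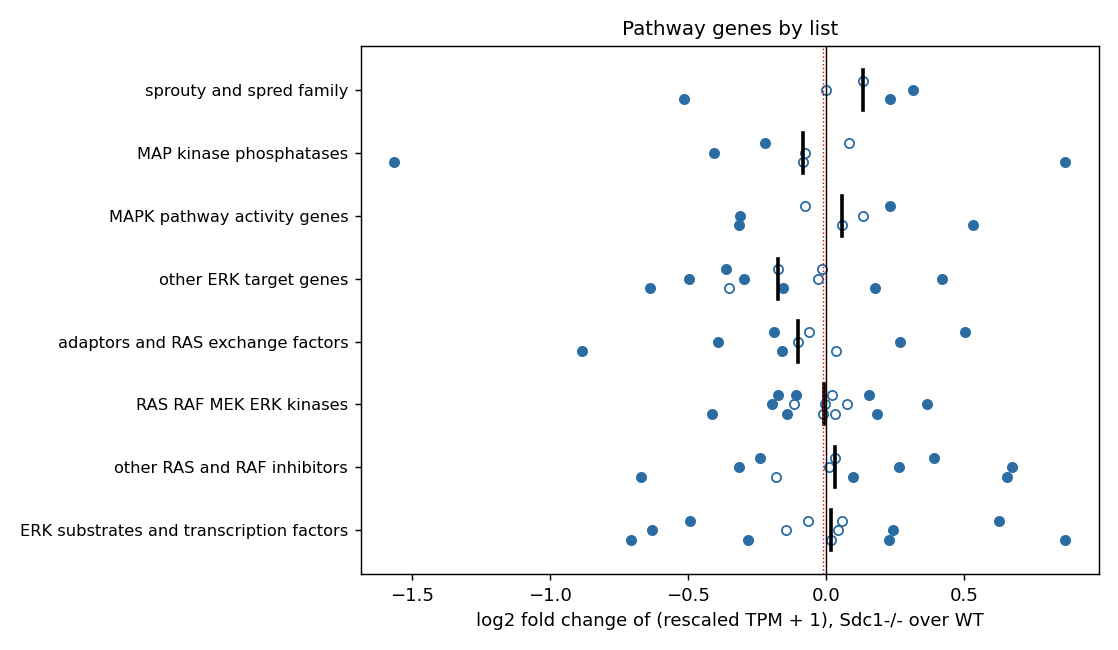
Log2 fold change of (rescaled TPM + 1), Sdc1-/- over WT (horizontal axis), for the tested genes of 8 lists of the pathway (rows). Each point is 1 gene, filled where it passed an adjusted p of 0.05, the black bar is the median of the list, and the red dotted line is the median of all genes tested, -0.0097. The other ERK target genes, drawn without those of the MAPK activity list, have a median of -0.17, while both the kinase list and the substrate list have medians near 0 with genes on both sides.

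Without the members, 66 of the 76 pathway genes listed were tested, of which 18 were higher, 26 lower and 22 did not pass, with a median log2 fold change of -0.073. With every library set to the same sum the counts were 25 higher and 14 lower. The share of called genes in these lists, like that of the members, is to be read against the 60.7% called among all genes.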

How the data were processed

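RNA-seq libraries of Lin- bcCML cells were grouped by GEO's condition label, 3 WT and 3 Sdc1-/-. The values deposited by the authors are a signal for each gene and library: kallisto estimates as TPM, scaled afterwards so that library sums differ. The mm10 build and sleuth 0.30.0 come from the submitters' processing notes, and the annotation release is not given in the sources used here. A second deposited table holds the authors' own comparison (effect sizes, p-values, q-values and variances) and was not used. Symbols were found for 35454 of 36083 identifiers, and 11369 genes were at 0 in all 6 libraries.

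Groups were compared with limma 3.58.1 in R 4.3.3 on log2(value + 1), for genes with a mean of 1 or more, with group as the sole term, a variance trend and a Benjamini-Hochberg threshold of 0.05. The planned test for TPM was kept for the rescaled values. Sums and ratios were compared with 2-sided exact permutation tests in scipy 1.17.1, and p-values are given for sums only. The fits were tested on simulated data. Alternatives left out single libraries, added the replicate number as a block, dropped the variance trend, or changed the pseudocount, the minimum mean or the scaling. Tables and figures were made with matplotlib 3.10.9, pandas 2.3.3 and numpy 2.4.6 under Python 3.11.15. Gene coordinates are GENCODE annotation on GRCm38, and promoters are from RefSeq on GRCm38.p6, searched over 250 bases.

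Genes named are the 9 members, the tested genes of their families and of the MAPK activity list, the 2 largest called rises and falls of each other pathway list, Mapk3, Map2k1, Map2k2, Sdc1, leading markers, and the 3 genes most like the most abundant and the most changed member. Some genes that this rule names are not reported here. The members and lists were chosen with earlier results of these data known.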

Additional observations from a re-analysis of the deposited data

How the results depend on the processing

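Of 122 values of the members under 14 alternatives, 108 kept their direction and their side of the threshold, as did 426 of 438 values of the other genes named. Spry1, Spry2 and Spred2 kept both under every alternative that gave a value. With libraries each set to sum to 1000000, Spry4 (0.24), Dusp5 (0.22) and Etv5 (0.19) passed limma's test, the signs of Spred1 (0.14), Dusp6 (0.064), Dusp9 (0.0035) and Map2k1 (0.033) turned, 5 members were higher, and the genes that were lower numbered 2367 over all and 14 among the other pathway genes. That scaling shifts the median of all genes upwards. With a minimum mean of 5, 1 member was higher, since Spry2 falls below that minimum. Dusp4 was 0.52 with a pseudocount of 0.1 and no longer passed. Leaving out each library in turn gave -0.075 to 0.066 for Spred1, 0.17 to 0.23 for Dusp4 and -0.019 to 0.15 for Map2k2, with Map2k2 below 0 without Sdc1-/- library 1, and Spred1 above 0 without WT library 2 or 3 or Sdc1-/- library 1 or 2.

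The shared numbers showed no steady pairing of the libraries. Deviations of same-numbered libraries from their group means correlated at 0.15, -0.0083 and 0.018, and WT library 2 correlated best with Sdc1-/- library 3 (0.14). Correlations this small cannot settle whether the numbers pair the libraries. A fit with the replicate block gave 3653 higher and 3971 lower genes and, as without it, 2 members higher and 1 lower. Read depth is unknown, so how far depth limits low genes such as Dusp4 cannot be given.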
